A study of Homo sapiens with 4 samples.

Results

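The addition of miR-210 and miR-33a to a mix of miR-338-3p and miR-451 was examined in 1 pair of arrays, the 4-miRNA array minus the 2-miRNA array. These are 2 of the 4 arrays in the series, chosen by their labelled treatment and day, and 12264 expressed genes were compared between them. Both held messenger RNA of T84 cells, a line from a human colorectal carcinoma, which polarises and secretes chloride in the manner of crypt cells when grown on a permeable support. The cells were seeded at 500000 per well on polycarbonate filters of 24 mm with pores of 0.4 µm, given 15 pmol of oligonucleotides and collected on day 5. One culture received miR-338-3p and miR-451, and the other received the same pair together with miR-210 and miR-33a. The 2 other arrays, used here for scaling and as levels set beside the pair, came from cultures that had received a short RNA as negative control and were harvested after 5 or 7 days. Each group had 1 array, so no test across samples exists, no p-value or standard error is given, and variation between cultures was not measured. The labels leave unsaid whether 15 pmol was the sum over a mix or applied to every oligonucleotide, so the added miRNAs and a lower dose of the shared miRNAs cannot be told apart. The array does not measure mature miRNAs, so it does not check the labels.

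A miRNA is a short RNA that guides an Argonaute protein to messenger RNAs, mostly through pairing of its seed, bases 2 to 8, with a matching site, and the bound messenger RNA is translated less or degraded. miR-210 is known as the main miRNA induced by hypoxia and miR-33a, encoded in an intron of SREBF2, as a repressor of cholesterol efflux and fatty acid oxidation. miR-338 is encoded in an intron of AATK, and miR-451 is processed by AGO2 without Dicer. The mature sequences of 3 of the 4 miRNAs are shown because the pair of arrays differs by the first and second of them, with the seed in capitals. The labels name the 3p arm for miR-338 alone, and the arms given for the other two are the commonly used ones, with RefSeq sequences on GRCh38.p14.

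hsa-miR-210-3p: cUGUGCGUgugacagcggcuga
hsa-miR-33a-5p: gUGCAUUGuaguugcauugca
hsa-miR-338-3p: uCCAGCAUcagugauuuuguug

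They lie at chr11:568112-568133 (minus strand), chr22:41900949-41900969 (plus strand) and chr17:81125887-81125908 (minus strand). No seed is shared. Position by position, the seeds of miR-210-3p and miR-33a-5p have the same base at 2 of 7 positions, those of miR-210-3p and miR-338-3p at 3, and those of miR-33a-5p and miR-338-3p at 0.

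The pair was matched in brightness as deposited, with trimmed means of 147 and 150 for the 2-miRNA and 4-miRNA arrays, against 76.6 and 74.3 for the controls. A level set beside a control therefore also sets a bright array beside a dim one. On the scaled arrays the 3′ to 5′ signal ratio of GAPDH was 0.962 and 0.951 and that of ACTB 2.28 and 1.97. The 9 bacterial control probe sets differed by a median log2 of −0.02, from −0.11 to 0.04. Of 18 colon epithelium markers all were expressed, EPCAM (scaled signal 37349 and 35406) and TSPAN8 (47131 and 45379) among the brightest. Of 10 fibroblast, 10 leukocyte and 8 endothelium markers, 3, 4 and 2 were expressed, and their values were low (THY1 131 and 24.99, CD3E 106 and 188, PECAM1 199 and 157). Of the leukocyte markers LYZ was the brightest (490 and 462).

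The 2 cultures were alike over most genes. The log2 difference, of scaled signal plus 32, had a median of 0.00 and an SD of 0.37, and 6230 genes (50.8%) were above 0. At least 2-fold apart were 128 genes higher with 4 miRNAs (1.04%) and 163 lower (1.33%). Together these were 291 genes (2.37%). Most were dim: 16% of the 956 genes under a mean log2 of 7 were 2-fold apart, against 0.304% of the 1976 genes from 10 to 11 and none of the 1471 genes from 11 to 12 or the 1564 above. Among the 11156 genes that reached the median on both arrays, 33 were 2-fold higher and 44 lower. Among the 5011 genes with a mean log2 of 10 or more, 54 (1.08%) were past 1.5-fold on the higher side and 17 (0.339%) on the lower. Of the genes past 2-fold, 242 had a single probe set. The other 49 had several, which had the same sign in 34, and all of them were past 2-fold in 6.

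**Figure D1:**
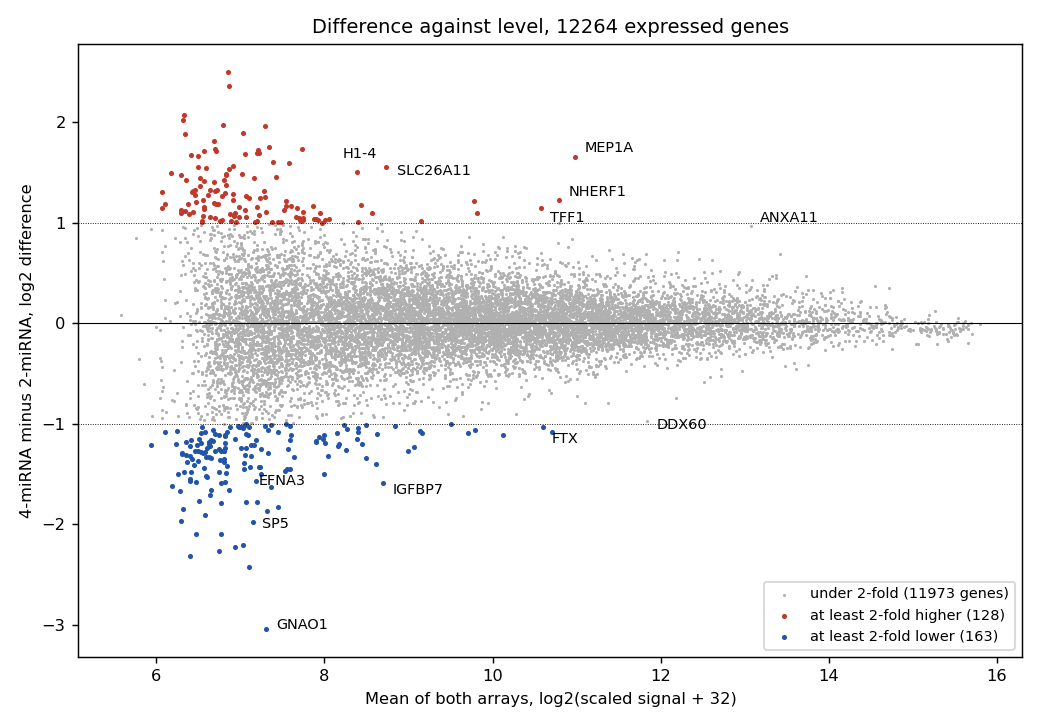
Log2 difference between the 4-miRNA and 2-miRNA arrays (vertical axis) against the mean log2 level of both (horizontal axis), 1 point per expressed gene. The 128 genes higher (red) and 163 lower (blue) by 2-fold crowd at the dim end, and MEP1A, NHERF1 and TFF1 stand above the dotted line at levels over 10.

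Pairs of probe sets of one gene give the error of a single value. In 2625 genes whose 2 brightest probe sets both averaged a log2 of at least 9, the part specific to a probe set had an SD of 0.18 and the part shared by the gene an SD of 0.14. The pair had the same sign in 64% of these genes. A difference in one gene of the size of either SD is thus within probe set error. For dim pairs the SD specific to a probe set was larger, 0.43 at a mean log2 from 7 to 8 and 0.66 under 7. A median over a list averages that error, but not a difference between the 2 cultures or RNA preparations.

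**Figure D2:**
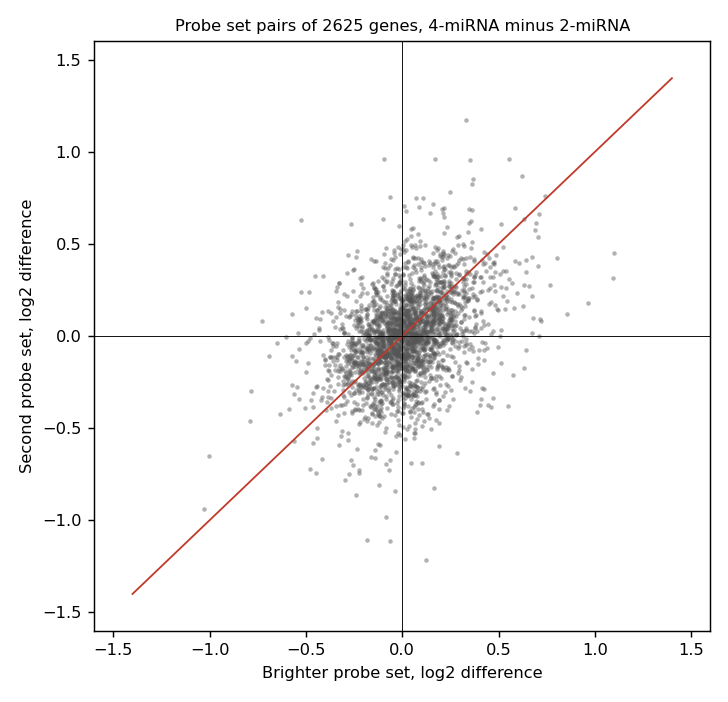
Log2 difference (4-miRNA minus 2-miRNA) of the brighter probe set (horizontal) against the second probe set (vertical) for 2625 genes, with the line of equality in red. The cloud is wide around the line, with an SD of 0.18 specific to a probe set and 0.14 shared by the gene.

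Of the genes that reached the median on both arrays with probe sets of one sign, MEP1A was the highest. MEP1A, the meprin alpha subunit and a brush border metalloprotease, had a scaled signal of 1113 with 2 miRNAs and 3556 with 4, and 1467 and 3295 in the day 5 and day 7 controls (log2 difference 1.65). NHERF1, a PDZ scaffold that holds transporters at the apical membrane, read 1128 and 2688, and 2455 and 2485 in the controls (1.23). TFF1, a secreted trefoil peptide, read 995 and 2240, and 697 and 2002 in the controls (1.15). The 2-miRNA array is the low one of the 4 for MEP1A and NHERF1, whereas for TFF1 the day 5 control is lowest. SLC44A4, a choline transporter-like protein of the apical membrane, is the one of these with a second probe set, and both were higher (544 to 1303, 1.21, and 219 to 598, 1.33). SLC26A11, an anion transporter, read 217 and 695, above both controls at 431 and 342 (1.55). H1-4, a linker histone, read 167 and 530, with 457 and 350.9 in the controls (1.5). The other genes among the 12 highest of this kind, each with 1 probe set and a signal under 500 on both arrays, were TMUB1 (90.3 and 251, 1.21), SGTA, a cochaperone (199 and 490, 1.18), CYP4F2, a fatty acid hydroxylase (123 and 317, 1.17), KIF12, a kinesin (92.5 and 247, 1.16), CETN1, a centrin (98.0 and 259, 1.16), and LRRC75B (106 and 272, 1.14).

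The brush border list, microvillus proteins and surface hydrolases, had 15 of 21 members above 0 and a median of 0.16. MEP1A, NHERF1 and ANPEP, aminopeptidase N (145 to 323, 1.0), were past 2-fold, as 1.04% of all genes were. Among actin-bundling and motor proteins, MYO1A was at 0.39, VIL1 at 0.19 and PLS1 at −0.07. CDHR2 (95.6 and 173, 0.68) and VILL (726 and 1123, 0.61) were higher than these. EPS8, which caps and bundles actin at the microvillus tip, was the lowest member at −0.17.

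Absorptive enterocyte genes had 14 of 19 members above 0 and a median of 0.18, and none was 2-fold apart. SLC26A3, the apical chloride-bicarbonate exchanger, read 794 and 1365 (0.76), between the controls at 223 on day 5 and 3417 on day 7. AQP8, a water channel, read 709 and 1183 (0.71), with 286 and 4950 in the controls. For both genes the 4-miRNA array lay nearer the day 7 control than the 2-miRNA array did. FABP1, the fatty acid binding protein and brightest member, was level (46324 and 45679, −0.02). CA1, carbonic anhydrase 1, was the lowest member (122 and 53.9, −0.85), and its signal with 4 miRNAs was under the median of that array.

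Genes of goblet cells, which secrete mucus, had 16 of 21 members above 0 and a median of 0.23. Besides TFF1, TFF3 read 3663 and 6021 (0.71), ZG16, a mucus lectin, 8575 and 13859 (0.69), and FCGBP, a mucus component, 1657 and 2337 (0.49). The factors that specify the lineage were higher by less, ATOH1 at 0.45 and SPDEF at 0.39, and MUC2, the gel-forming mucin, at 0.24. DLL4, a Notch ligand, was at least 1.13-fold higher, under the median of the 2-miRNA array (15.1 and 98.5). DLL1, another Notch ligand, was the lowest member (978 and 595, −0.69).

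Chloride secretion, the function for which T84 cells are studied, was split. Of 21 members 13 were above 0, with a median of 0.06. CFTR, the apical chloride channel, read 6226 and 5049 (−0.30), and SLC12A2, the basolateral cotransporter that loads chloride, 14044 and 10648 (−0.40). The basolateral potassium channel subunits KCNQ1 (0.33), KCNE3 (0.45) and KCNN4 (0.35) and the calcium-activated chloride channel ANO1 (0.45) were on the other side of 0. LPAR2, a lysophosphatidic acid receptor, was at least 3.32-fold lower by its brighter probe set (271 and 51.5), but its second probe set went the other way (28.1 and 128).

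**Figure D3:**
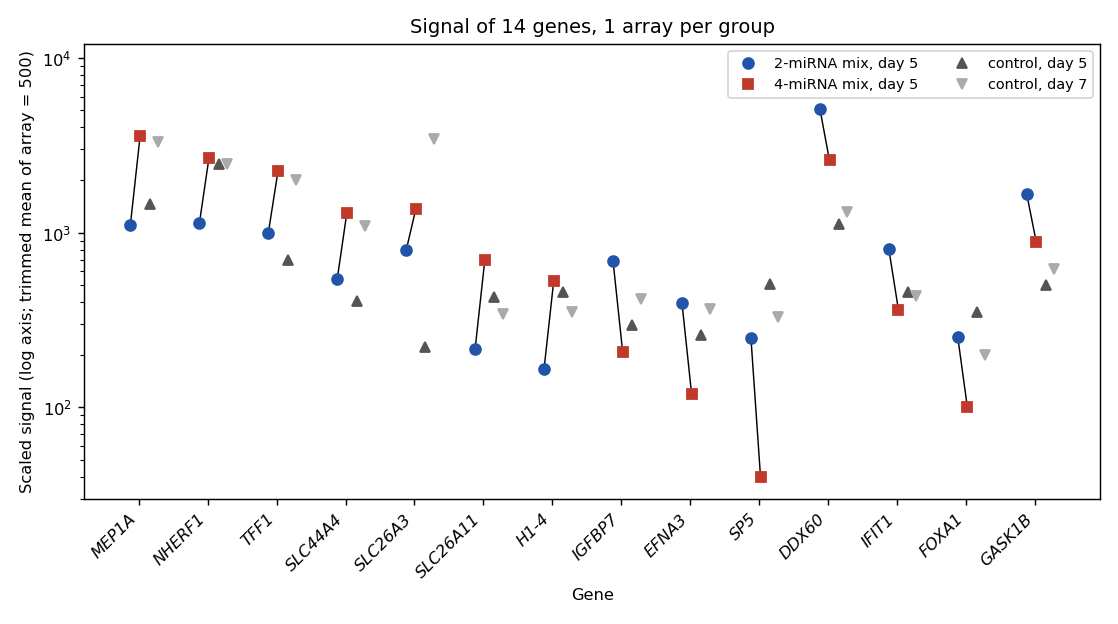
Scaled signal on a log axis for 14 genes on the 4 arrays, 1 array per group, with a line joining the 2-miRNA (blue) and 4-miRNA (red) arrays. MEP1A, NHERF1, TFF1 and SLC44A4 are higher with 4 miRNAs, IGFBP7, EFNA3, SP5 and DDX60 lower, and the grey symbols give the controls.

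The junction and polarity lists had medians near 0. The tight junction scaffold list had 12 of 13 members above 0 with a median of 0.11, led by LSR, the tricellular junction protein (0.60), and CGN, cingulin (0.49), while TJP1, the scaffold ZO-1, was at 0.03 and OCLN, occludin, at 0.11. With the median over probe sets the tight junction scaffold share above 0 was 61.5%. Claudins, the strands that set the permeability of the junction, had 4 of 9 above 0. Among them CLDN3 (0.43) and CLDN4 (0.45) were above 0, and CLDN2, the cation pore, below it (745 and 574, −0.36). CLDN18 was the lowest claudin (161 and 74.6, −0.86), and its signal with 4 miRNAs was under the median of that array. CDH1, E-cadherin, was at 0.11 and ITGB1, the β1 integrin, at −0.02. The fourth and dimmest probe set of ITGB1 was under the median with 2 miRNAs (56.0 and 158). The polarity complexes had 14 of 23 members above 0 with a median of 0.10, which was 0.0001 with the median over probe sets. MARK2, a kinase of the basolateral domain, was highest (207 and 362, 0.72, its second probe set at −0.11). PRKCI, atypical protein kinase C iota, was at −0.20 and CRB3, an apical determinant, at 0.22. Integrins and laminins were split evenly, with 10 of 20 above 0. Their highest member, PLEC, the linker of hemidesmosomes to keratin, was at least 3.18-fold higher by one probe set (47.5 and 277), with the other at 0.24.

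Of the same kind of gene, IGFBP7 was the lowest. IGFBP7, which is secreted and binds insulin-like growth factors, read 689 with 2 miRNAs and 208 with 4, with 294 and 415 in the controls (−1.59). Its second probe set was under the median of both arrays (84 and 24.5) and gives no fold. GNAO1, a G protein alpha subunit, was at least 5.14-fold lower (420 and 23.0, controls 151 and 57.3). SP5, a transcription factor induced by Wnt, was at least 3.07-fold lower (251 and 39.8, controls 509 and 329). The 2-miRNA array is the highest of the 4 for IGFBP7 and GNAO1, and for SP5 the 4-miRNA array is the lowest. FOXA1, a pioneer factor of endoderm, read 253 and 99.9 (−1.11), and by its second probe set 150.3 and 72.4, the latter under the median. DYNC1I1, a dynein intermediate chain, read 608 and 210 (−1.4). CXCL11, an interferon-induced chemokine, read 404 and 156, above both controls at 94.5 and 92.8 (−1.22), and by its second probe set 201 and 70.6, the latter under the median. MST1, a growth factor related to HGF, was at least 2.69-fold lower (220 and 52.8), and its second probe set read 209 and 31.6. GASK1B, a Golgi kinase-like protein, read 1667 and 879 (−0.90), and by its second probe set 138 and 63.3, the latter under the median. The other genes among the 12 lowest that reached the median on both arrays with probe sets of one sign, besides EFNA3, were MCPH1-AS1 (−1.45), ADCY6-DT (−1.45), LINC00957 (−1.33), CCDC18-AS1 (−1.33), RAB3IL1, which binds the vesicle GTPase RAB3 (385 and 135, −1.32), TOP6BL (758 and 296, −1.27, second probe set −0.27), WHAMMP2 (−1.26), PEX39 (260 and 90.7, −1.25) and LOC100190986 (−1.23). FTX, a non-coding gene of the X-inactivation centre, read 2177 and 1050 (−1.03), and −0.94 by its second probe set. Whether the probes of the antisense genes also take signal from the opposite strand was not checked.

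Crypt and Wnt target genes had 8 of 18 members above 0 and a median of −0.13. LGR5, the stem cell receptor for R-spondin, read 2836 and 1947 (−0.54, second probe set −0.34), and OLFM4, a crypt base protein, 13222 and 9839 (−0.43). AXIN2, the classical Wnt feedback gene, read 5701 and 6126 (0.10), but its 4 probe sets ran from −0.36 to 0.74, and ASCL2, the crypt stem cell factor, was at 0.16. The list's median was 0.10 over its members at a mean log2 of 9 or more, so its sign rests on dim genes. Ephrins and Eph receptors had 3 of 11 above 0 with a median of −0.14, EFNA3 lowest and EFNB2 highest (0.37).

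Genes reported elsewhere as targets of the added miRNAs had list medians near 0. Of 21 expressed reported targets of miR-210, 10 were below 0, where 49.2% of all genes were, and the median was 0.01. EFNA3, an ephrin and the best known of them, read 395 with 2 miRNAs and 119 with 4, against 259 and 366 in the controls (−1.5, 1 probe set). It was the one member past 2-fold, on the lower side, where 1.33% of all genes were. TP53I11, a p53-induced gene, was at least 1.87-fold lower (153 and 64.7), and HSD17B1, an estradiol-forming dehydrogenase, was at −0.79 (414 and 227). The iron-sulfur scaffold ISCU read 7160 and 5936 (−0.27), SDHD, a subunit of respiratory complex II, 14935 and 12605 (−0.24), and E2F3, a cell cycle factor, 1283 and 1025 (−0.31, second probe set −0.51). GPD1L, a dehydrogenase that regulates HIF, was at −0.11. ISCU and SDHD are among the bright genes, where the SD over all genes that averaged 12 or above was 0.17. AIFM3 (0.49) and MNT, a MYC antagonist (0.33), were highest. NPTX1, BDNF and HIF3A, also reported, were not expressed.

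The 19 expressed reported targets of miR-33a had 7 below 0 and a median of 0.09, and none was 2-fold apart. ABCA1, the cholesterol exporter that miR-33a is best known to repress, read 205 and 216 (0.07, second probe set 0.33), with 106 and 139 in the controls. ABCG1, a second exporter, read 112 and 205 (0.72), and by its second probe set 13.6 and 115, the former under the median. IRS2, an insulin receptor substrate, read 1649 and 2529 (0.61, second probe set 0.40). Of the fatty acid oxidation targets CROT, a carnitine transferase, was at −0.24 (second probe set −0.34) and HADHB and CPT1A at 0.05 and 0.23. The other probe sets of CPT1A were lower, down to −0.51 (199 and 131). ZNF281, a transcription factor, was lowest (565 and 428, −0.37).

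Targets of the miRNAs present in both mixes were centred near 0. The 7 expressed reported targets of miR-338-3p had a median of −0.04, from −0.21 (MACC1) to 0.15 (AATK). The 14 of miR-451 had a median of 0.03, from −0.28 (ABCB1) to 0.35 (IL6R). CAB39, an adaptor of LKB1, was at −0.10 and MIF, a cytokine, at 0.13. The genes that host or neighbour the added miRNAs read 0.09 for MIR210HG (637 and 681, controls 288 and 987) and 0.06 for the brightest probe set of SREBF2 (528 and 551). The second probe set of MIR210HG was at 0.39 (316 and 425). The other probe sets of SREBF2 were lower, at −0.55 (456 and 301) and −0.48 (273 and 186). Of 22 genes of RNA silencing 6 were above 0 with a median of −0.07, and DICER1, the miRNA-processing RNase, was lowest (2756 and 1940, −0.50, 3 probe sets from −0.64 to −0.19).

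**Figure D4:**
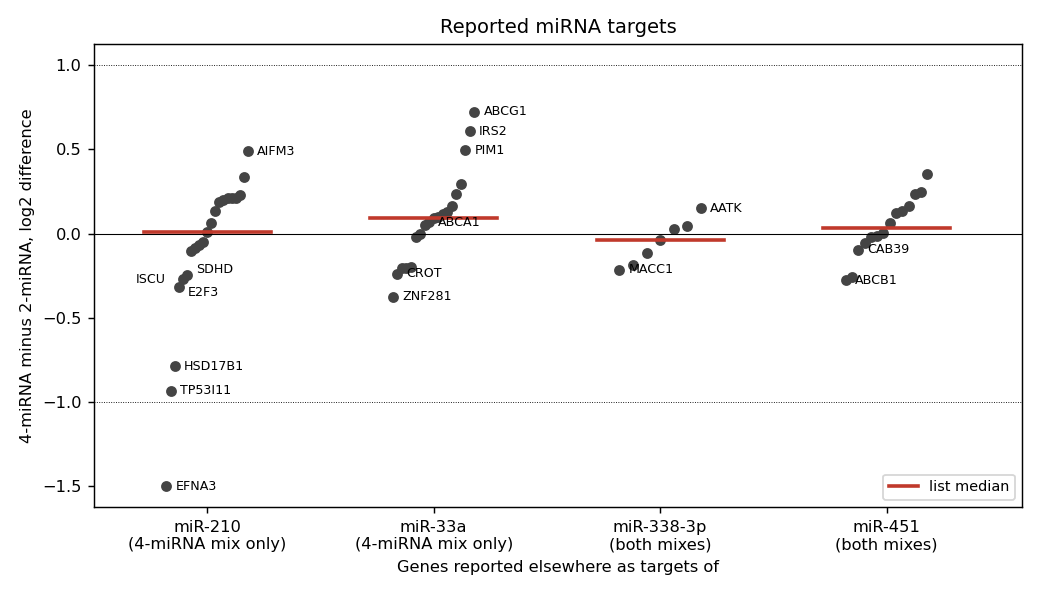
Log2 difference (4-miRNA minus 2-miRNA) of every expressed reported target, in order of value within each list, with the list median in red and dotted lines at 2-fold. EFNA3 is the one gene past a dotted line, and the medians lie between −0.04 and 0.09.

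Genes of mitosis, which run the spindle and the checkpoint, had 35 of 44 members above 0 and a median of 0.18, against 50.8% and 0.00 over all genes. The values were small: AURKB, the kinase of the chromosomal passenger complex, read 1131 and 1524 (0.42; its second probe set was under the median of both arrays), CDC20 2186 and 2876 (0.39), MKI67 3942 and 5103 (0.37) and CDK1 14862 and 16796 (0.18). FOXM1, a factor known to activate many of these genes, read 1094 and 1674 (0.60), and ECT2, a cytokinesis factor, was lowest (−0.30). INCENP, of the same complex as AURKB, was the one member past 2-fold (118 and 276, 1.04), as 1.04% of all genes were on the higher side. The day 5 control lay above both arrays for AURKB (2447) and CDC20 (5505).

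DNA replication genes had 18 of 46 above 0 and a median of −0.06. The helicase subunits MCM6 (5500 and 4336, −0.34) and MCM5 (1297 and 1020, −0.34) and the clamp PCNA (13993 and 11873, −0.24) were lower, and RRM2, of ribonucleotide reductase, higher (8975 and 12501, 0.48). The RB and E2F list had 19 of 26 above 0 and a median of 0.12.

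The promoters of the mitosis genes are shown where they hold the cell cycle elements. The CHR element was searched as TTTGAA and the CCAAT box as CCAAT, both strands, from 250 bases before to 50 after the start in RefSeq. TTTGAA was in 28 of 37 matched mitosis promoters (75.7%) and in 15.4% of all 27305 promoters. CCAAT was in 30 (81.1%) and in 35.7%, and both were in 24 (64.9%) and in 6.08%. Among the 9958 compared genes with a promoter, TTTGAA was in 10.3%, CCAAT in 37.3% and both in 4.36%. The median difference was 0.18 with TTTGAA and 0.12 without it, but 0.17 with CCAAT and 0.21 without it. The stretches around the motifs of MKI67, ESPL1 and PRC1 are printed with the motifs in capitals (ATTGG is CCAAT on the other strand, and in MKI67 the last pair overlaps).

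MKI67: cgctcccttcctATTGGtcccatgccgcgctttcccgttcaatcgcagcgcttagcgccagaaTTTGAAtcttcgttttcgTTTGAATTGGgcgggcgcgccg
ESPL1: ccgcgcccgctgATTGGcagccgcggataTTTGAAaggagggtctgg
PRC1: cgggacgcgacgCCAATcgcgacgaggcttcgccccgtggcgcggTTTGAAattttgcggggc

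These lie at chr10:128126431-128126533 (minus strand), chr12:53268239-53268285 (plus strand) and chr15:90994538-90994600 (minus strand) of GRCh38.p14. ESPL1, separase, was higher by 0.35 and PRC1, a spindle midzone protein, by 0.21. A match is a description of the letters and was not tested as a site.

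Immediate early genes, which respond within minutes to growth signals, had 23 of 32 above 0 and a median of 0.21. DUSP6, a feedback phosphatase of ERK, read 5520 and 7950 (0.52, 3 probe sets from 0.35 to 0.52), FOSL2 674 and 977 (0.51), IER3 11798 and 14486 (0.30) and EGR1 3117 and 3671 (0.23). FOSL1 (319 and 190, −0.66) and the YAP targets CCN1 (−0.49) and CCN2 (−0.46) were below 0. SRF was past 2-fold (138 and 313, 1.02, second probe set 0.22), as 1.04% of all genes were on the higher side. Of the 20 members at a mean log2 of 9 or more, 18 were above 0.

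Targets of the hypoxia-inducible factor HIF had 26 of 31 members above 0 and a median of 0.21. PFKFB4, a glycolytic regulator, read 867 and 1448 (0.72, second probe set 0.20). EGLN3, the prolyl hydroxylase that limits HIF, read 1414 and 2011 (0.50, second probe set 0.14). HILPDA, a lipid droplet protein, read 3235 and 4504 (0.47, second probe set 0.32). CA12, a carbonic anhydrase, read 4007 and 5511 (0.46, second probe set 0.32). The day 5 and day 7 controls read 273 and 1381 for EGLN3. PGK1 (−0.05) and LDHA (−0.01), both bright glycolytic targets, were close to 0, and HIF1A itself was lower (8079 and 6882, −0.23), while EPAS1, encoding HIF-2α, was higher (5016 and 6857, 0.45). ANGPTL4, at least 1.55-fold higher, was dim (35.0 and 136). The core ACGTG, searched on both strands, was in 14 of 26 matched HIF promoters (53.8%). It was in 21.6% of all promoters and in 26.7% of those of the 9958 compared genes with a promoter. The median difference was 0.12 with it and 0.26 without it.

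Most genes of lipid synthesis lay above 0. Fatty acid synthesis had 16 of 21 above 0 and a median of 0.28, with ACSS2, which makes acetyl-CoA (1437 and 2458, 0.76), DGAT1, the last step of triglyceride synthesis (220 and 398, 0.77), FASN (633 and 980, 0.61) and SCD (17069 and 20232, 0.24). Its one member past 2-fold, as 1.04% of all genes were on the higher side, was THRSP (1.32). THRSP was dim (23.6 and 107), the former under the median. Cholesterol synthesis had 17 of 22 above 0 and a median of 0.11, with LSS (0.49), DHCR7 (0.48) and MSMO1 (11057 and 14244, 0.36) leading the bright members. MVD was past 2-fold (91.1 and 215, 1.0), as 1.04% of all genes were on the higher side. HMGCS1, which makes HMG-CoA, was level (2786 and 2744, −0.02). The lysosome list had 19 of 24 above 0 and a median of 0.16, and antioxidant genes of NRF2 17 of 21 and 0.19. The latter were led by AKR1C1 (1303 and 2295, 0.80, second probe set 0.42) and AKR1C2 (1012 and 1716, 0.74). The controls read 3452 and 2953 for AKR1C1, above both arrays of the pair, and 1802 and 1552 for AKR1C2. The aldo-keto reductases AKR1C1, AKR1C2 and AKR1C3 are close copies and their probe sets may share signal.

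**Figure D5:**
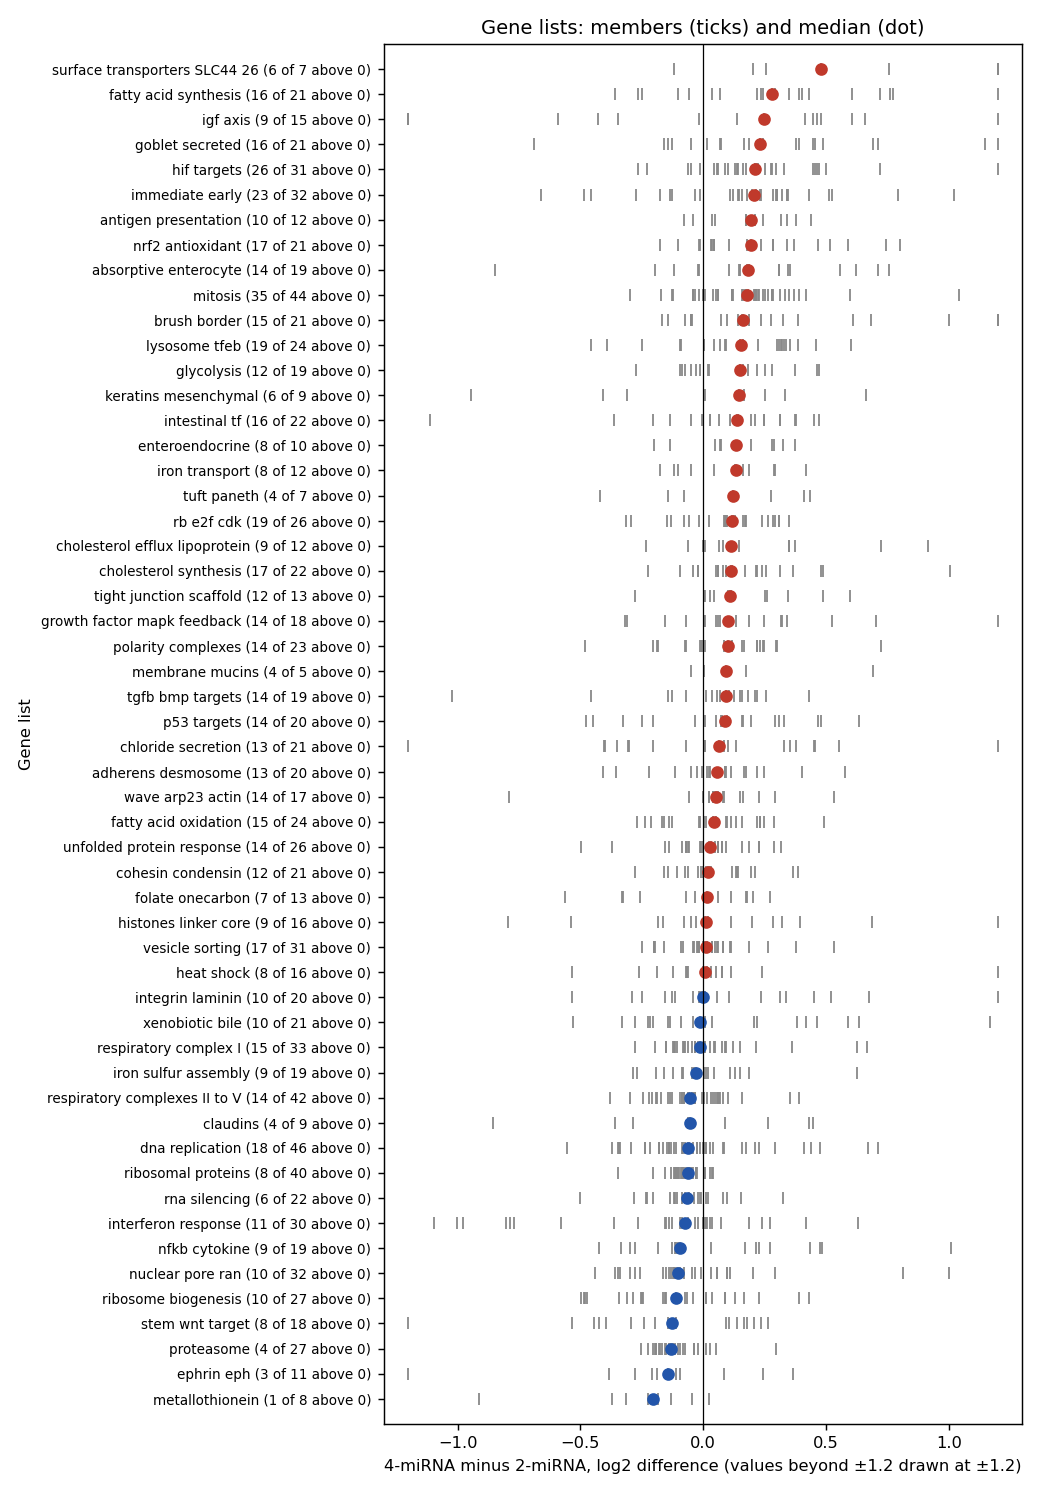
Log2 difference (4-miRNA minus 2-miRNA) of the expressed members (ticks) of each gene list with 5 or more, with the list median as a dot, red above 0 and blue below. The medians run from 0.48 (SLC44 and SLC26 transporters) to −0.21 (metallothioneins), and most lists overlap 0.

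Of 30 interferon-induced genes 11 were above 0, with a median of −0.07. Past 2-fold on the lower side, with 1.33% of all genes, were OASL and IFIT1. DDX60, an RNA helicase of the antiviral response, read 5119 with 2 miRNAs and 2586 with 4, with 1123 and 1311 in the controls (−0.98). IFIT1 read 808 and 361, with 460 and 435 in the controls (−1.09), and OASL 994 and 480, with 858 and 677 (−1.0). IFIT2 (1203 and 684, −0.79), IFI44 (349 and 187, −0.80), HERC5 (335 and 183, −0.77) and IFIT3 (2235 and 1485, −0.58) were lower as well, but ISG15 (1161 and 1091, −0.09), MX1 (−0.03), IFI6 (0.01) and OAS3 (0.03) were level, and IFIT5 was higher (747 and 1172, 0.63). The antigen presentation list, part of it interferon-induced, was on the other side, with 10 of 12 above 0 and a median of 0.19 (TAP1 0.44, HLA-B 0.32). HLA genes are close copies and their probe sets may share signal.

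The proteasome had 4 of 27 above 0 and a median of −0.13, from PSMB2 at −0.25 to PSMD3 at 0.30. Cytoplasmic ribosomal proteins had 8 of 40 above 0 and a median of −0.06, and ribosome biogenesis 10 of 27 and −0.11. Nuclear pore and Ran genes had 10 of 32 above 0 and a median of −0.10, though RANGAP1 (207 and 447, 1.0, other probe sets as low as −0.09) and AAAS (340 and 622, 0.81) were high. Respiratory complexes II to V had 14 of 42 above 0 and a median of −0.05, and complex I 15 of 33 and −0.01. Metallothionein genes had 1 of 8 above 0 and a median of −0.21, led by MT1E (311 and 150, −0.91, second probe set −0.76). They are close copies and their probe sets may share signal.

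The differences moved slightly with the GC content of the promoters. In 5 groups of genes of about equal size by promoter GC, the median difference over the 9958 genes with a promoter went from −0.03 at the lowest to 0.06 at the highest, and the share above 0 from 44.7% to 59.7%. With each group centred at 0, the medians were 0.18 for mitosis, 0.15 for HIF targets and −0.11 for the proteasome, over the 84.1%, 83.9% and 81.5% of their members that had a promoter. Each group's median was within 0.06 of 0, so the centring alone cannot move a list median by over 0.1. Of 34 lists with a promoter for at least 80% of their members, 1 changed by more, the SLC44 and SLC26 transporters (0.48 to 0.33). Its centred median was taken over 6 of its 7 members. Chloride secretion came to 0.015, polarity complexes to 0.042 and glycolysis to 0.066.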

How the data were processed

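The deposited table holds one intensity per probe set and array on a linear scale, made by the authors with MAS5 according to the submitters' processing notes, and no scaling target is named there. A 2% trimmed mean of 500 was set on every array (factors 3.39, 3.33, 6.53 and 6.73 for the 2-miRNA, 4-miRNA, day 5 and day 7 arrays), and 32 was added before log2. Probe sets stayed in if their mean log2 reached the median over the whole table or if they reached the 75th percentile on any array, and the highest mean stood for the gene. Of 54675 probe sets, 41043 had 1 gene symbol and a matching gene ID, 54 had 1 symbol without a match, 1801 several (left out) and 11777 none. Genes were counted from a log2 difference of 1 in either direction. Under the median of one array, a fold is the brighter signal over that array's median, given as a lower bound. The members and the 64 gene lists were chosen with earlier results of these data known. Genes were marked for naming by rule, and the text does not name all of them. The rule took the 12 largest differences in each direction among genes that reached the median on both arrays with probe sets of one sign. It also took up to 3 in each direction under the median of one array and past the 75th percentile of the other. It further took the 12 in each direction whose probe sets agreed most and the reported targets. List members past 2-fold and up to 4 more were taken as well. Other named genes were chosen after their values were seen. Seed sites in messenger RNA were not analysed here. Scripts used Python 3.11.15, numpy 2.4.6, pandas 2.3.3 and scipy 1.17.1, tested on simulated data. The number of arrays limits the precision.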

Additional observations from a re-analysis of the deposited data

How the results depend on the processing

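The count of genes past 2-fold depended on how dim genes were handled. At least 2-fold higher were 63 with an offset of 64, 701 with no filter on low signal, 30 with a 70th percentile filter and 6 among genes at a mean log2 of 9 or more; lower were 88, 705, 39 and 9. The share of members above 0 moved to 83.3% for chloride secretion, 100% for the tight junction scaffold, 85.7% for the IGF axis and 90.0% for immediate early genes among members at a mean log2 of 9 or more (chosen after seeing the data), to 61.5% for the tight junction scaffold and 0% for metallothioneins with the median over probe sets, and to 100% for enteroendocrine genes with the 70th percentile filter. The median changed sign for stem cell and Wnt genes (0.095 with the 70th percentile filter, 0.099 at a mean log2 of 9 or more) and, with the median over probe sets, for tuft and Paneth genes (−0.079) and glycolysis (−0.025); the cause was not tested. Quantile normalization, running-median centring, an offset of 16, values without rescaling and the median over probe sets left both counts past 2-fold within 1.5 times. The 348 genes under the naming rule include many that were not past 2-fold in the main setting. Among those that were, 14 were no longer past 2-fold with an offset of 64 and 11 with the median over probe sets. No paired analysis was possible because each group had 1 array. Dim signal limits single genes.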

Other observations

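The insulin-like growth factor axis had 9 of 15 members above 0 (median 0.25), and 0.14 with the median over probe sets. The receptor IGF1R was above 0 by its brightest probe set (2033 and 2722, 0.42) but below it by the second (−0.28). INSR was above 0 (540 and 756, 0.46, second probe set 0.18), and the binding proteins lay on both sides. IGFBP2 read 2336 and 3275 (0.48), IGFBP3 was at least 1.81-fold higher (26.1 and 158), and IGFBP4 at least 1.31-fold lower (107 and 11.9). Enteroendocrine genes had 8 of 10 members above 0 (median 0.13). Intestinal transcription factors had 16 of 22 (0.14), and FOXA1 was lowest. ELF3 (2213 and 2879, 0.37) and KLF5 (9060 and 12407, 0.45, second probe set 0.18) were above 0. Genes that answer to p53 had 14 of 20 above 0 (0.09), with GDF15, a stress cytokine, at 0.63 (2724 and 4243) and BAX, a pro-death factor, at −0.48 (589 and 415). Targets of TGF-β and BMP had 14 of 19 (0.09), with ID3 at 0.43 and ID4 at −1.02 (620 and 289; its other probe sets were nearer 0). NF-κB and cytokine genes had 9 of 19 (−0.09), and genes of the unfolded protein response 14 of 26 (0.03), with CRELD2 at −0.50.

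Several bright genes outside the lists, chosen after their values were seen, were apart. SCML2, a Polycomb protein, read 1221 and 2467, with 1080 and 1117 in the controls (1.0). ANXA11, an annexin, read 6119 and 11984, with 12778 and 14240 in the controls (0.97), but its 3 probe sets ran from 0.07 to 0.97. OGT, the enzyme that adds O-GlcNAc to proteins, was lower by all 6 probe sets, from −0.78 to −0.29 (7158 and 4752, controls 7176 and 6881). MMP7, a secreted metalloprotease, read 2844 and 1633, with 3216 and 2153 in the controls (−0.79).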
